A study of Mus musculus with 28 samples.

Results

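The DNA replication genes described here are 39 genes of the S phase machinery, taken by name from a list of replication and nucleotide supply genes. The list set no measured value as a filter, but it was chosen with earlier results of these data known. All 39 were found among the 19938 genes that the arrays measured with a probe set of 1 gene symbol. They comprise 11 genes of origin licensing, 8 of origin firing, 6 of primase and the DNA polymerases, 10 of the moving fork and 4 of nucleotide supply. The levels are log2 values, so a difference of 1 is 2-fold, and levels are compared here between samples and not between genes.

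A cell copies its DNA before it divides, starting from many origins. Origins are first licensed, when the origin recognition complex with Cdc6 and Cdt1 loads the ring of Mcm2 to Mcm7 onto DNA, and they fire later, when the Cdc7-Dbf4 kinase, Cdc45 and the GINS complex turn that ring into a running helicase. Primase and polymerase alpha start each new strand, polymerases delta and epsilon extend it, and Pcna, its loader replication factor C, the nuclease Fen1, the ligase Lig1 and the single-strand binding protein RPA serve the fork. Most of these genes are transcribed by E2F factors as a cell enters S phase, and an activated CD4+ T cell, which divides many times in a few days, is a textbook case of their induction.

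The series followed CD4+ T cells with a transgenic T cell receptor for TRP1, a melanocyte protein. All donor cells came from BwTRP1 mice lacking Rag1 (Rag1-/-) and were grown for 7 days with peptide and irradiated C57/B6 splenocytes, under Th1 conditions (IL-12 with anti-IL-4) or Th17 conditions (IL-1, IL-6, IL-21 and TGFβ2, with antibodies to IL-2, IL-4 and IFN-γ, and IL-23 later on). They were profiled on day 0 or put into B6.PL hosts that had received 5 Gy and recovered on day 5 or day 15 from pooled spleens and inguinal lymph nodes by negative CD4 selection and sorting for Thy1.2, the donor's Thy1 type, so host cells that survived the irradiation were around the donor cells in every group after transfer. A part of each sample received antibodies to CD3 and CD28 for 2 h (restimulated), and the rest did not (unstimulated). Day 5 held 3 Th1 and 3 Th17 arrays per condition, day 15 held 2 Th1 and 4 Th17 arrays per condition, and day 0 held 1 array per group. Separate mice are not named as the source of replicates, and the p-values therefore speak of the spread among these samples alone, which may be technical.

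The labelled cell type was checked on its markers. The mean of 6 measured T cell markers lay between 12.31 and 12.63 on all 24 arrays after transfer, and 0 of 6 were called in any pairwise comparison at an adjusted p of 0.05 or in any interaction. Markers of other cells also varied. The mean of 7 measured erythroid markers, genes of red cell precursors, lay between 6.16 and 6.79 on day 5 and between 8.12 and 10.11 on day 15, and the markers not measured include Ahsp, Hba-a1 and Hbb-b1. The mean of 11 myeloid markers was 6.34 to 6.83 in Th1 arrays after transfer and 6.85 to 8.80 in Th17 arrays. In an unstimulated Th17 sample of day 15, replicate 3, 33 of the 39 replication genes had their lowest value of the 4 replicates, so the 4 counts above 0 of called genes that rest on it are also given without it. Array medians over all probe sets ran from 6.77 to 7.09, and precision here is set by how few arrays a group holds.

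The replication genes varied together across the groups. All 39 had their highest mean of the 8 groups after transfer in unstimulated Th1 cells of day 5, and 33 of 39 had their lowest in restimulated Th1 cells of day 15. The median deviation of the 39 genes from their own means over the 24 arrays after transfer was 0.46 to 0.58 in the unstimulated Th1 arrays of day 5 and 0.23 to 0.31 in the Th17 arrays. On day 15 the order of the types was the opposite, with -0.40 and -0.26 in Th1 and -0.30 to 0.08 in Th17, and replicate 3 was the lowest Th17 array. Restimulated arrays lay below all unstimulated ones in Th1 and Th17 cells of day 5, at 0.16 to 0.35 and 0.06 to 0.14, and in Th1 cells of day 15, at -0.67 and -0.65. In Th17 cells of day 15 they lay at -0.46 to -0.14 and overlapped the unstimulated arrays. In these bulk samples, fewer dividing cells and less RNA of these genes per cell cannot be told apart.

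**Figure D1:**
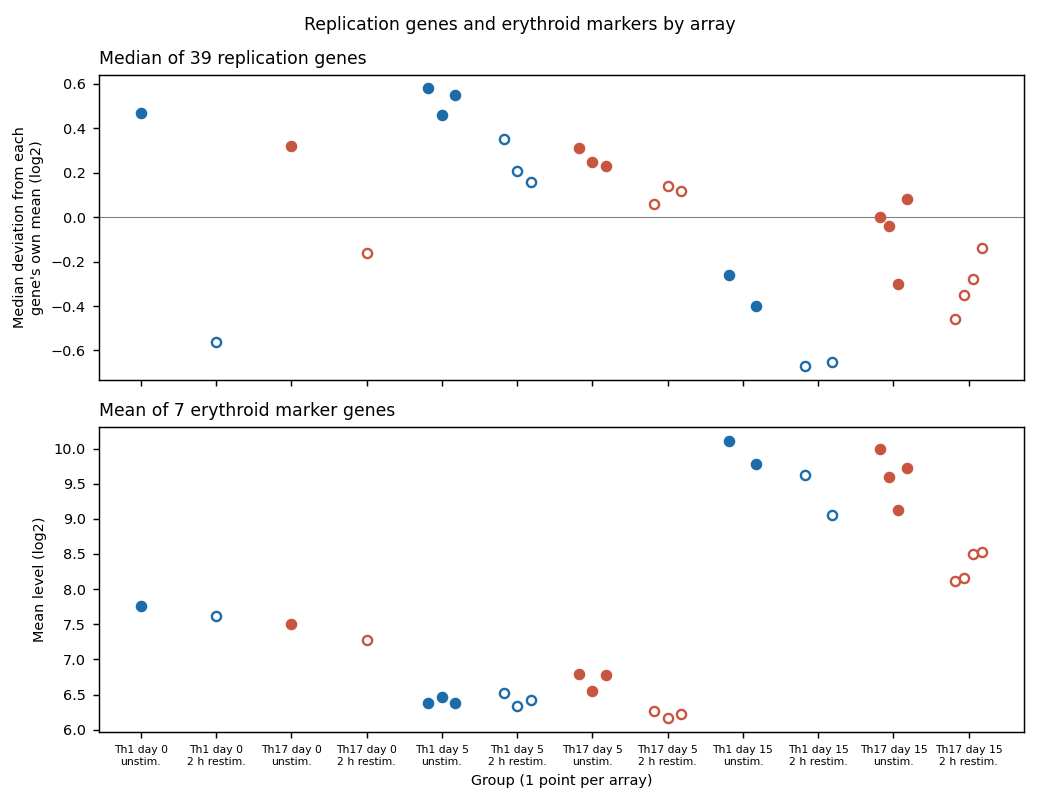
The upper panel plots the median log2 deviation of the 39 replication genes from their own means over the 24 arrays after transfer, for each array, and the lower panel the mean log2 level of 7 erythroid markers, with Th1 in blue, Th17 in red, unstimulated arrays filled and restimulated arrays open. Replication genes are highest in unstimulated Th1 arrays of day 5 (0.46 to 0.58) and lowest in restimulated Th1 arrays of day 15 (-0.67 and -0.65), while erythroid markers lie above 8 log2 units on day 15 only.

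RefSeq promoter windows of 300 bases, 250 before and 50 after the annotated start (GRCm38.p6), were matched for 31 of the 39 genes. The E2F site was searched as 4 words of 8 bases (TTTGGCGC, TTTGCCGC, TTTCGCGC and TTTCCCGC) on both strands, and words may overlap. At least 1 word was found in 12 of 36 member windows (33.3%), against 2.26% of all 32851 windows in the table and 2.99% of the 19116 windows of genes on the arrays. By role, the words were found in 7 of 9 licensing genes, 2 of 4 primase and polymerase genes, 2 of 9 fork genes, 1 of 5 firing genes and 0 of 4 nucleotide supply genes with a window. The CCAAT box, searched as CCAAT on both strands, was in 55.6% of member windows and 37.4% of all windows. A match describes these letters in this window and is not a measured binding site. The windows of the 4 genes called in the most comparisons among those with a word are printed here, with the E2F words in capitals. Rrm2, Mcm2, Fen1, Prim1, Mcm10 and Cdc45 were called at least as often as Mcm7 and Mcm5 and had no word in their windows. The Mcm3 window (chr1:20820263-20820562, minus strand) has 2 words, both after the annotated start. Of 3 Lig1 windows, the printed one (chr7:13278576-13278875, plus strand) has 1 word after the start. Of 2 Mcm7 windows, the printed one (chr5:138171834-138172133, minus strand) has 1 on each side of the start. The Mcm5 window (chr8:75109259-75109558, plus strand) has 2 overlapping words upstream. The 12 windows with a word came from 12 genes, so the Lig1 and Mcm7 windows not printed have none.
Mcm3: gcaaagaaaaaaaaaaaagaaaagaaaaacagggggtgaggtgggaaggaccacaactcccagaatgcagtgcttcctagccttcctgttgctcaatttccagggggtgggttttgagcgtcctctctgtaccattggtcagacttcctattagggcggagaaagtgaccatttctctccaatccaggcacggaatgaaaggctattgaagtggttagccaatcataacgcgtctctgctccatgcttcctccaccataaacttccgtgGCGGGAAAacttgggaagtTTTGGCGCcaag
Lig1: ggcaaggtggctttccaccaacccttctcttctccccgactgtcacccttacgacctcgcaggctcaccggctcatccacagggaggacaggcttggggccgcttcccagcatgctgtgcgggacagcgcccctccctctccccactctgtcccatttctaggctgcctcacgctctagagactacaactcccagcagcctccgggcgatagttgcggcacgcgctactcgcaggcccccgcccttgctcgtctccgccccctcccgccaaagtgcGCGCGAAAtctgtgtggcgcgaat
Mcm7: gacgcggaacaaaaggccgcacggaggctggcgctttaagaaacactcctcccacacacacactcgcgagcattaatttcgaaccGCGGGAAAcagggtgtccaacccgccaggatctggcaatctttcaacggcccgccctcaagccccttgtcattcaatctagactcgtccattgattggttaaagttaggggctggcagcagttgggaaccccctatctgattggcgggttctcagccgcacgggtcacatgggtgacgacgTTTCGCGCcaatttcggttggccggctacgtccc
Mcm5: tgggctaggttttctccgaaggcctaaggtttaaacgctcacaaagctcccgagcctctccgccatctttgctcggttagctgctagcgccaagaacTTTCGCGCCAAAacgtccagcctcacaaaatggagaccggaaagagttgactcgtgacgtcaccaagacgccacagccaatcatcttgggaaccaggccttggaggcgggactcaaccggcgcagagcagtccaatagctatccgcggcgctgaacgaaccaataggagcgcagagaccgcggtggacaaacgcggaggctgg

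The levels of the 12 genes called in the most of the 12 pairwise comparisons are given here by role, array by array in replicate order. Among the licensing genes, Mcm2, a helicase subunit, measured 11.64, 11.57 and 11.57 in unstimulated Th1 arrays of day 5 and 10.80 and 10.54 on day 15, against 11.34, 11.43 and 11.35 and then 11.31, 11.27, 11.16 and 11.28 in Th17 arrays. Restimulated, it measured 11.26, 11.26 and 11.17 and then 10.26 and 10.42 in Th1, and 10.83, 11.14 and 11.03 and then 10.47, 10.69, 10.75 and 10.90 in Th17. The unstimulated types changed places between the days, with every Th17 array below every Th1 array on day 5 and above them on day 15. Mcm3, another subunit of the ring, measured 10.88, 10.75 and 10.84 in unstimulated Th1 arrays of day 5 and 9.68 and 9.32 on day 15, against 10.64, 10.45 and 10.48 and then 10.35, 10.24, 9.83 and 10.26 in Th17. Its restimulated values were 10.74, 10.48 and 10.55 and then 9.45 and 9.41 in Th1, and 10.28, 10.37 and 10.28 and then 9.74, 9.82, 9.84 and 9.96 in Th17. Mcm3 showed the same change of order, and its lowest unstimulated Th17 value of day 15 came from replicate 3.

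Mcm5 measured 12.26, 12.13 and 12.25 in unstimulated Th1 arrays of day 5 and 11.57 and 11.54 on day 15, against 11.92, 12.03 and 12.04 and then 11.79, 11.71, 11.66 and 11.84 in Th17. With restimulation it measured 12.17, 12.12 and 12.08 and then 11.08 and 11.26 in Th1, and 11.85, 11.97 and 11.95 and then 11.38, 11.45, 11.43 and 11.71 in Th17. It moved over a narrower range than Mcm3, but the order of the unstimulated types again turned between the days. Mcm7 measured 11.99, 11.80 and 11.90 in unstimulated Th1 arrays of day 5 and 11.14 and 10.93 on day 15, against 11.67, 11.58 and 11.66 and then 11.56, 11.44, 11.42 and 11.58 in Th17. Restimulated arrays gave 11.77, 11.52 and 11.56 and then 10.67 and 10.72 in Th1, and 11.48, 11.52 and 11.58 and then 11.04, 11.15, 11.10 and 11.47 in Th17. Its unstimulated Th17 values of day 15 came close to those of day 5. Gmnn, which encodes geminin, the inhibitor of Cdt1, measured 7.70, 7.51 and 7.67 in unstimulated Th1 arrays of day 5 and 6.54 and 6.46 on day 15, against 7.22, 7.26 and 7.35 and then 6.64, 6.74, 6.60 and 6.95 in Th17. After restimulation the values were 7.18, 7.13 and 7.08 and then 6.27 and 6.13 in Th1, and 6.84, 7.05 and 7.08 and then 6.55, 6.54, 6.76 and 6.83 in Th17. Within each type and condition, every day 15 array lay below every day 5 array.

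Of the firing genes, Cdc45, which travels with the helicase, measured 9.97, 9.89 and 9.89 in unstimulated Th1 arrays of day 5 and 8.71 and 8.51 on day 15, against 9.68, 9.73 and 9.64 and then 9.17, 9.25, 8.98 and 9.32 in Th17. Its restimulated values were 9.74, 9.75 and 9.59 and then 8.61 and 8.62 in Th1, and 9.49, 9.67 and 9.56 and then 9.0, 9.24, 9.19 and 9.30 in Th17. All 4 Th1 arrays of day 15 lay below every other array. Mcm10, a factor of helicase activation, measured 10.00, 9.79 and 9.85 in unstimulated Th1 arrays of day 5 and 8.73 and 8.39 on day 15, against 9.62, 9.61 and 9.47 and then 9.13, 9.08, 8.84 and 9.05 in Th17. Restimulated, it measured 9.82, 9.51 and 9.54 and then 8.48 and 8.21 in Th1, and 9.43, 9.44 and 9.36 and then 8.55, 8.70, 8.80 and 8.75 in Th17. No day 15 value reached any day 5 value.

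Prim1, the catalytic subunit of primase, measured 9.86, 9.71 and 9.87 in unstimulated Th1 arrays of day 5 and 8.56 and 8.42 on day 15, against 9.69, 9.57 and 9.54 and then 9.17, 9.08, 8.59 and 9.24 in Th17. With restimulation it measured 9.60, 9.40 and 9.46 and then 8.17 and 8.15 in Th1, and 9.33, 9.48 and 9.41 and then 8.66, 8.85, 8.93 and 9.0 in Th17. The 2 restimulated Th1 arrays of day 15 were its lowest, and Th17 replicate 3 of day 15 lay well under the other 3 unstimulated Th17 arrays. Pole, the catalytic subunit of polymerase epsilon, measured 10.80, 10.68 and 10.76 in unstimulated Th1 arrays of day 5 and 9.91 and 9.81 on day 15, against 10.62, 10.58 and 10.43 and then 10.34, 10.34, 10.13 and 10.41 in Th17. Restimulated arrays gave 10.57, 10.42 and 10.29 and then 9.35 and 9.15 in Th1, and 10.23, 10.34 and 10.17 and then 9.80, 10.09, 10.07 and 10.23 in Th17. Its widest gap between the types was in restimulated cells of day 15, where the groups did not overlap.

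At the fork, Fen1, which trims Okazaki fragments, measured 9.55, 9.41 and 9.55 in unstimulated Th1 arrays of day 5 and 8.47 and 8.34 on day 15, against 9.19, 9.21 and 9.28 and then 8.82, 8.76, 8.41 and 8.62 in Th17. After restimulation the values were 8.90, 9.0 and 8.84 and then 7.96 and 8.08 in Th1, and 8.60, 8.95 and 8.69 and then 8.22, 8.22, 8.25 and 8.33 in Th17. In each of the 4 pairs of groups, every restimulated array lay below every unstimulated one. Lig1, the ligase that joins those fragments, measured 11.01, 10.91 and 11.03 in unstimulated Th1 arrays of day 5 and 9.89 and 9.72 on day 15, against 10.54, 10.63 and 10.56 and then 10.22, 10.41, 10.29 and 10.34 in Th17. Its restimulated values were 10.85, 10.68 and 10.68 and then 9.70 and 9.56 in Th1, and 10.50, 10.50 and 10.44 and then 9.87, 10.01, 10.02 and 10.23 in Th17. Lig1 was lower in all unstimulated Th17 than Th1 arrays of day 5 and higher in all of them on day 15. For nucleotide supply, Rrm2, the regulated subunit of ribonucleotide reductase, measured 11.98, 11.86 and 12.06 in unstimulated Th1 arrays of day 5 and 11.08 and 10.62 on day 15, against 11.91, 11.81 and 11.69 and then 11.41, 11.37, 11.02 and 11.33 in Th17. Restimulated, it measured 11.48, 11.38 and 11.34 and then 10.38 and 10.11 in Th1, and 11.19, 11.40 and 11.33 and then 10.43, 10.64, 10.77 and 11.09 in Th17. Rrm2 was lower after restimulation in every group pair, with an overlap in Th17 cells of day 15 alone.

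**Figure D2:**
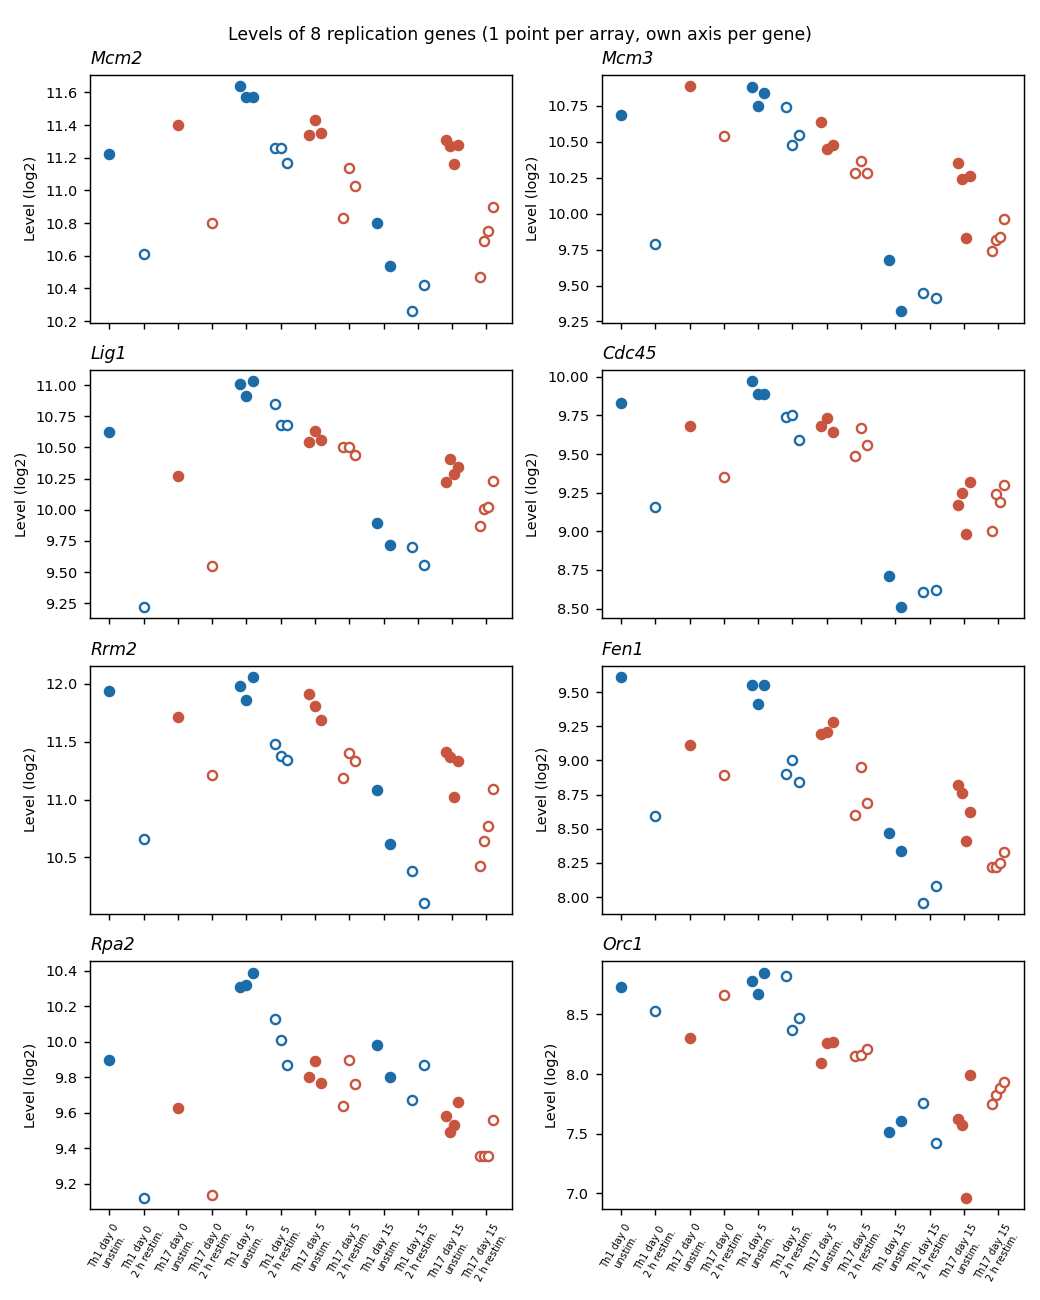
Log2 level of 8 replication genes on each of 28 arrays, with Th1 in blue, Th17 in red, unstimulated arrays filled, restimulated arrays open and an axis of its own for each gene. Mcm3 and Cdc45 are lowest in the 4 Th1 arrays of day 15 and Lig1 in the restimulated arrays of day 0. Rrm2 and Fen1 lie lower after restimulation, while Orc1 is higher after it in Th17 cells of day 0 and, by group mean, of day 15. Rpa2 is lower in all Th17 than Th1 arrays of day 15.

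The change from day 5 to day 15 asks how the S phase program of each type persisted in the host. In unstimulated Th1 cells 37 of 39 replication genes fell and 0 rose, against 8.72% of all genes that fell and 7.33% that rose. The fall was at least 2-fold for 15 of them, and the share of all genes with a fall of that size was not counted. The median difference of the 39 was -0.86 (0.00 over all genes). In 39 of 39 every day 15 array lay below every day 5 array, as it did in 25.6% of all genes. All 11 licensing genes, all 8 firing genes, 5 of 6 primase and polymerase genes, 9 of 10 fork genes and 4 of 4 nucleotide supply genes fell. The 95% intervals, standard errors and adjusted p-values in this report come from limma with Benjamini-Hochberg adjustment over all genes, and ± gives the standard error. At an unadjusted p under 0.05, 0 of the 39 were higher on day 15 in any of the 4 comparisons of the days, against 12.4% and 12.2% of all genes in unstimulated and restimulated Th1 cells and 13.5% and 9.55% in Th17 cells.

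The 4 called genes with the largest fall in unstimulated Th1 cells were Rfc3, Gins1, Mcm3 and Mcm10. Rfc3, a subunit of the Pcna loader, measured 9.56, 9.45 and 9.67 on day 5 and 8.35 and 8.07 on day 15, a difference of -1.36 ± 0.17 (adjusted p = 5.64e-06, 2.56-fold lower). Gins1, of the GINS complex, measured 8.32, 8.18 and 8.45 and then 7.08 and 6.87, a difference of -1.34 ± 0.18 (adjusted p = 1.11e-05). For both genes every day 15 value lay more than 1 log2 unit below every day 5 value. Mcm3 differed by -1.33 ± 0.13 (adjusted p = 1.16e-07), Mcm10 by -1.32 ± 0.12 (adjusted p = 6.36e-08), and Prim1 and Cdc45 followed at -1.32 and -1.31. The smallest called difference was in Gins4, at -0.39. Pold1, the catalytic subunit of polymerase delta, at -0.52 (adjusted p = 0.0507), and Pcna, the sliding clamp, at -0.27 (adjusted p = 0.0736), were not called.

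In restimulated Th1 cells 38 of 39 genes fell and 0 rose, against 8.64% and 7.07% of all genes, and the median difference was -0.92. Rfc4, also of the Pcna loader, measured 11.02, 10.68 and 10.82 on day 5 and 9.64 and 9.30 on day 15, a difference of -1.37 ± 0.18 (adjusted p = 9.50e-06). Gins1 measured 8.07, 7.87 and 8.03 and then 6.60 and 6.66, a difference of -1.36 ± 0.18 (adjusted p = 1.15e-05). Neither gene's groups overlapped. Prim1 differed by -1.32 ± 0.14 (adjusted p = 6.57e-07) and Mcm10 by -1.28 ± 0.12 (adjusted p = 2.13e-07). The exception was Rpa2, the middle subunit of RPA, at -0.23 (adjusted p = 0.154).

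In unstimulated Th17 cells fewer replication genes passed the test. Between day 5 and day 15, 18 of 39 genes fell and 0 rose, against 5.28% and 4.37% of all genes, with a median difference of -0.33 (0.05 over all genes), and all 18 were also among the 37 that fell in Th1. By role, 4 of 11 licensing, 6 of 8 firing, 2 of 6 primase and polymerase, 4 of 10 fork and 2 of 4 nucleotide supply genes were called. Dbf4, the activator of the Cdc7 kinase, measured 9.97, 9.91 and 9.92 on day 5 and 9.39, 9.17, 8.52 and 9.29 on day 15, a difference of -0.84 ± 0.16 (adjusted p = 0.00132). Orc1, of the origin recognition complex, measured 8.09, 8.26 and 8.27 and then 7.62, 7.57, 6.96 and 7.99, a difference of -0.67 ± 0.15 (adjusted p = 0.00597). Both groups were apart, and replicate 3 was by far the lowest day 15 array for both genes. Rfc3 measured 9.33, 9.02 and 9.0 and then 8.65, 8.58, 8.0 and 8.63 (-0.66 ± 0.15, adjusted p = 0.00496), and Gins1 8.09, 7.75 and 7.90 and then 7.51, 7.13, 6.78 and 7.61 (-0.65 ± 0.15, adjusted p = 0.00713). Lig1 (-0.26, adjusted p = 0.0505), Mcm2 (-0.11) and Mcm7 (-0.14), each down in Th1, were not called in Th17. Without replicate 3 of day 15 the count was 11, without replicate 1 of day 5 it was 10, and in a model of the compared groups alone it was 10. Counts under such alternatives are given here and below without the share of all genes. A change in them may therefore be shared by all genes.

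In restimulated Th17 cells 30 of 39 genes fell and 0 rose, against 8.42% and 5.05% of all genes, with a median difference of -0.40 (-0.05 over all genes). Of these 30, 29 were among the 38 that fell in restimulated Th1 cells, and the other was Rpa2. Mcm10 differed by -0.71 ± 0.10 (adjusted p = 7.16e-05). Rfc4 measured 10.47, 10.44 and 10.68 on day 5 and 9.65, 9.83, 9.94 and 10.07 on day 15, a difference of -0.65 ± 0.15 (adjusted p = 0.00507). Gins1 measured 7.61, 7.84 and 7.74 and then 6.79, 7.03, 7.20 and 7.33 (-0.64 ± 0.15, adjusted p = 0.00619), and Gins2, of the same complex, 8.97, 9.27 and 9.42 and then 8.47, 8.59, 8.56 and 8.82 (-0.61 ± 0.11, adjusted p = 0.000749). Every day 15 array was below every day 5 array for these 4 genes.

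**Figure D3:**
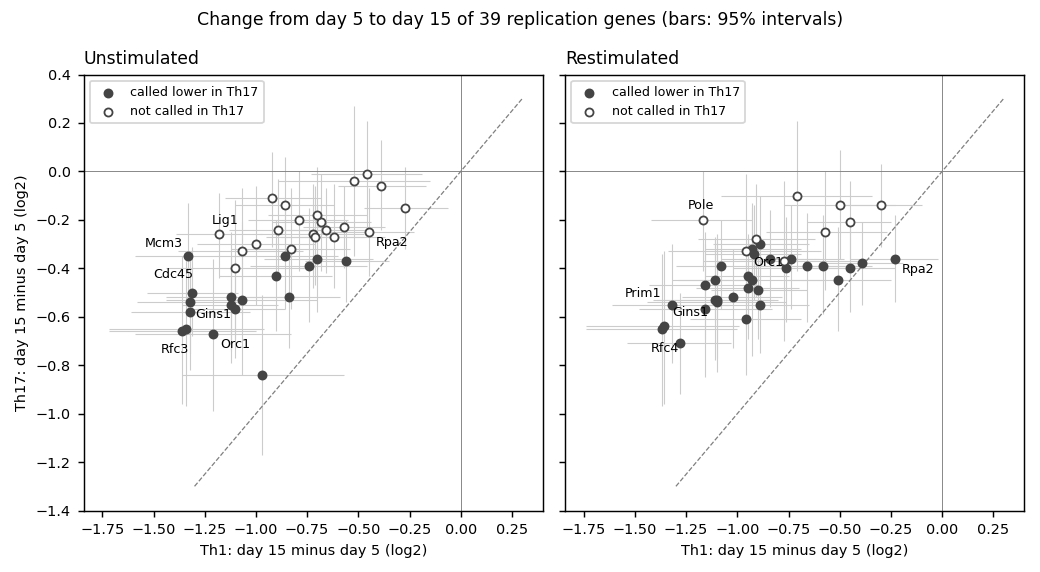
Day 15 minus day 5 difference (log2) of the 39 replication genes in Th1 (horizontal) against Th17 (vertical), unstimulated at left and restimulated at right, with 95% intervals, the dashed line of equal change, and filled points for genes called in Th17. All 39 genes lie above the line when unstimulated and 38 of 39 when restimulated, and the exception is Rpa2.

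All 7 erythroid markers rose from day 5 to day 15 in each of the 4 comparisons of the days, with medians from 2.26 to 4.01, while the replication genes fell. With the erythroid mean as a covariate, 24 of the 39 genes fell in unstimulated Th1 cells and 17 in restimulated Th17 cells, in place of 37 and 30. Calls can be lost there through wider errors as well as through smaller differences. Of 4 NK cell markers, 3 rose as well in unstimulated Th1 cells (median 1.22), 2 in restimulated Th1 cells (median 0.72) and 1 in either condition of Th17 cells. Of 11 myeloid markers, 2 rose in unstimulated and 1 in restimulated Th1 cells, 2 rose and 3 fell in unstimulated Th17 cells (from -2.31 to 3.78), and 2 rose and 1 fell in restimulated Th17 cells. Of 5 dendritic cell and MHC class II markers, 1 rose in either condition of Th1 cells and 1 fell in unstimulated Th17 cells, and 1 of 2 CD8 T cell markers fell in unstimulated Th1 cells. The part of the NK, myeloid, dendritic and CD8 markers in the result was not tested.

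Whether the fall differed between the types was tested as an interaction of type and day among unstimulated cells. All 39 estimates were positive, meaning a smaller fall in Th17, with a median of 0.52 (0.05 over all genes), and 8 genes passed the test in that direction and 0 in the other, against 0.577% and 0.562% of all genes. The 8 were Mcm2, Mcm3 and Mcm7 of the helicase ring, Mcm10 and Cdc45 of helicase activation, Prim1 and Pole of strand synthesis, and the ligase Lig1. Of these, Lig1 had the smallest adjusted p, at 0.92 ± 0.13 (adjusted p = 0.00073, 95% interval 0.64 to 1.19), with falls of 1.18 ± 0.10 in Th1 and 0.26 ± 0.08 in Th17. Mcm3 had the largest estimate, at 0.97 ± 0.17 (adjusted p = 0.00412), followed by Cdc45 at 0.81 ± 0.14 (adjusted p = 0.00412), Mcm2 at 0.80 ± 0.15 (adjusted p = 0.008) and Mcm10 at 0.78 ± 0.16 (adjusted p = 0.0138). Unadjusted p-values were under 0.05 for 31 of the 39, all positive, against 6.71% of all genes. Among markers, 2 of 4 NK genes had a negative estimate that was called and 1 of 11 myeloid genes a positive one. The count was 1 without Th1 replicate 2 of day 15 (Lig1), 4 without Th1 replicate 1 of day 5, 17 without Th17 replicate 3 of day 15, 18 with cyclic loess scaling and 23 with the erythroid covariate.

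Compared directly on day 5, unstimulated Th17 cells had lower values than Th1 cells for 39 of 39 genes, but the differences were small. The median was -0.25 (-0.04 over all genes), every Th17 array lay below every Th1 array for 33 genes, against 16.3% of all genes, and 2 genes passed the test as lower and 0 as higher, against 1.32% and 2.31% of all genes. At an unadjusted p under 0.05 the counts were 24 and 0, against 7.01% and 5.86%. Rpa2 measured 10.31, 10.32 and 10.39 in Th1 and 9.80, 9.89 and 9.77 in Th17, a difference of -0.52 ± 0.09 (adjusted p = 0.00096, 1.43-fold lower). Lig1 differed by -0.41 ± 0.09 (adjusted p = 0.00832). Orc1 had a larger estimate but was not called, at -0.56 (adjusted p = 0.0594). Without Th1 replicate 3 only Rpa2 was called, and 7 genes were called in a model of the compared groups alone, 4 with cyclic loess and 16 with the erythroid covariate. Myeloid markers were higher in Th17 arrays (7.58 to 8.80 against 6.50 to 6.83, with 4 of 11 called), as were 2 of 4 NK markers, and 1 of 5 dendritic cell and MHC class II markers was lower, and their part in the result was not tested.

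In restimulated cells of day 5, 0 of 39 genes passed the limma test in either direction, against 1.02% of all genes lower and 2.95% higher, and 8 had an unadjusted p under 0.05, all lower in Th17, against 3.59% of all genes lower and 8.21% higher. The median difference was -0.14 (0.00 over all genes). The 2 genes called in unstimulated cells were at -0.24 ± 0.09 for Rpa2 (adjusted p = 0.226) and -0.26 ± 0.09 for Lig1 (adjusted p = 0.152).

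On day 15 unstimulated Th17 cells had more of 8 replication genes than Th1 cells, and 0 were lower, against 1.88% and 2.28% of all genes. They were the same 8 genes that passed the interaction test, which shares these arrays. As lower in Th17, 1 gene (Rpa2) had an unadjusted p under 0.05, against 7.78% of all genes. The median of the 39 differences was 0.23 (0.02 over all genes). Mcm3 differed by 0.67 ± 0.12 (adjusted p = 0.00126, 1.59-fold higher), Mcm2 by 0.58 ± 0.11 (adjusted p = 0.00156), Cdc45 by 0.57 ± 0.10 (adjusted p = 0.00102) and Prim1 by 0.53 ± 0.13 (adjusted p = 0.0203). In these genes every Th17 array was above both Th1 arrays. The nucleotide supply genes Tk1 (0.45, adjusted p = 0.0719), Rrm2 (0.44) and Tyms (0.40) had estimates of like size and were not called. For Tk1 this was not seen in its other probe set, with means of 9.66 in Th17 and 9.57 in Th1. This comparison rested on 2 Th1 arrays: without Th1 replicate 2 the count was 0, without Th17 replicate 2 it was 5, without Th17 replicate 3 it was 9, with only the compared groups 3, and with the erythroid covariate 16. Among markers, 4 of 4 NK genes, 1 of 7 erythroid genes and 1 of 5 dendritic cell and MHC class II genes were lower in Th17, and of 11 myeloid genes 3 were higher and 1 lower, and apart from the covariate their part in the result was not tested.

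Restimulated cells of day 15 showed the widest difference between the types. There 11 genes were higher in Th17 and 1 was lower, against 3.45% and 2.98% of all genes, with a median of 0.32 (-0.03 over all genes), and 7 of the 8 genes called in unstimulated cells were called again, all but Mcm10. Pole differed by 0.79 ± 0.11 (adjusted p = 6.32e-05, 1.73-fold higher) and Prim1 by 0.70 ± 0.13 (adjusted p = 0.00161). Cdc45 differed by 0.56 ± 0.10 (adjusted p = 0.000923). Pola1, the catalytic subunit of polymerase alpha, measured 8.54 and 8.54 in Th1 and 8.89, 9.06, 9.24 and 9.17 in Th17, a difference of 0.55 ± 0.13 (adjusted p = 0.00992). With Prim1, Pole and Pola1, 3 of the 6 primase and polymerase genes were higher, as were 6 of 11 licensing genes (Mcm2, Mcm3, Mcm5, Mcm7, Cdc6 and Gmnn). Rpa2 was the gene that was lower, with 9.67 and 9.87 in Th1 and 9.36, 9.36, 9.36 and 9.56 in Th17, a difference of -0.36 ± 0.10 (adjusted p = 0.0254), and its unstimulated difference on day 15 was -0.33 (adjusted p = 0.0637). The count of all 12 called genes was 6 without Th1 replicate 1, 22 without Th17 replicate 1, 2 with only the compared groups (Pole and Prim1) and 22 with the erythroid covariate. Erythroid markers were lower in Th17 here, with 6 of 7 called and a median of -0.88, as was 1 of 5 dendritic cell and MHC class II markers, and of 11 myeloid markers 1 was higher and 1 lower.

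**Figure D4:**
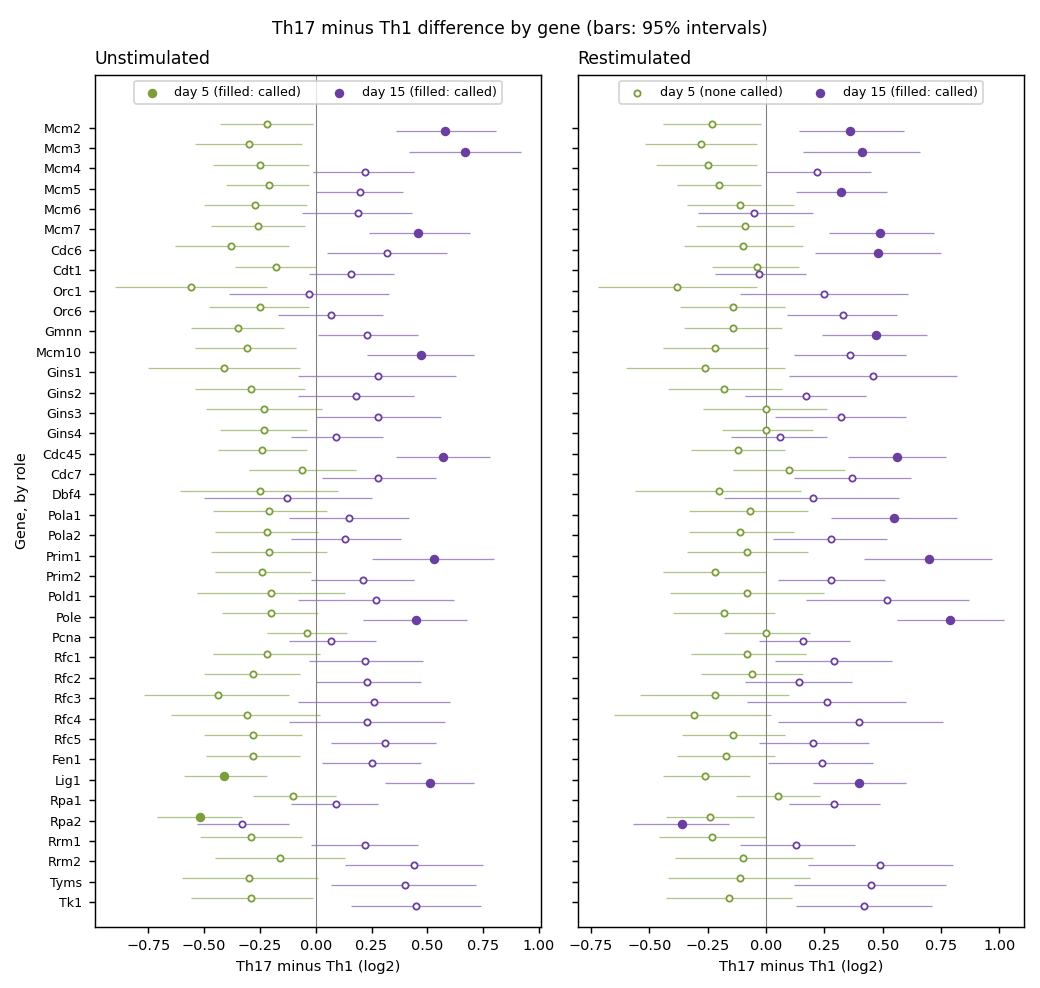
Th17 minus Th1 difference (log2) of each replication gene on day 5 (green) and day 15 (purple), unstimulated at left and restimulated at right, with 95% intervals and filled points for called genes. On day 5, 39 and 35 of 39 genes lie below 0, on day 15, 36 and 36 lie above it, and Rpa2 lies below 0 on both days.

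Restimulation for 2 h asks how the program responded to renewed signalling through the receptor. The median of the replication genes was lower after it in both types on both days, and 0 of the 39 passed the limma test as higher, with 1 at an unadjusted p under 0.05 (in Th17 cells of day 15). At that threshold 7.5% and 10.3% of all genes were higher in Th1 and Th17 cells of day 5, and 6.68% and 9.98% in those of day 15. On day 5, 11 genes fell in Th1 cells and 0 rose, against 8.96% and 4.07% of all genes, with a median of -0.29 (-0.01 over all genes), and 4 fell in Th17 cells and 0 rose, against 4.08% and 3.99%, with a median of -0.16 (0.03 over all genes). All 4 that fell in Th17 (Rrm2, Fen1, Mcm2 and Rpa1) were among the 11 of Th1. Fen1 differed by -0.59 ± 0.10 in Th1 (adjusted p = 0.000506) and -0.48 ± 0.10 in Th17 (adjusted p = 0.005). Rrm2 differed by -0.56 ± 0.14 in Th1 (adjusted p = 0.00953) and -0.50 ± 0.14 in Th17 (adjusted p = 0.031), and Mcm2 by -0.36 ± 0.10 (adjusted p = 0.019) and -0.37 ± 0.10 (adjusted p = 0.025).

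Gins3, of the GINS complex, measured 9.58, 9.41 and 9.59 in unstimulated and 9.13, 8.95 and 8.76 in restimulated Th1 cells of day 5, a difference of -0.58 ± 0.13 (adjusted p = 0.00373). Gmnn differed there by -0.50 ± 0.10 (adjusted p = 0.00217). Rpa1, the large subunit of RPA, measured 10.78, 10.71 and 10.75 in unstimulated and 10.50, 10.43 and 10.46 in restimulated Th17 cells, a difference of -0.29 ± 0.09 (adjusted p = 0.047). The groups of these genes did not overlap. Same-numbered arrays are taken as parts of 1 sample, and with the replicate as a block Rfc2 in Th1 (adjusted p = 0.0602) and Rpa1 in Th17 (adjusted p = 0.0713) were no longer called, while Rfc3 (adjusted p = 0.0414) and Cdc6 (adjusted p = 0.0388) were called in Th1. In Th1 the count was 6 without unstimulated replicate 1, 4 without unstimulated replicate 3, 7 without restimulated replicate 2, 6 without restimulated replicate 3, 25 with only the compared groups, 18 over genes above the median level and 19 with the erythroid covariate. In Th17 it was 1 without unstimulated replicate 1 or 2 or restimulated replicate 1 or 3, 2 without unstimulated replicate 3, 2 with only the compared groups, 7 with cyclic loess and 0 with the erythroid covariate. In Th17 cells of day 5, 2 of 7 erythroid and 2 of 11 myeloid markers fell too and 1 of 4 NK markers rose, and in Th1 cells 1 of 4 NK markers rose and 1 of 2 CD8 T cell markers fell.

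On day 15, 5 genes fell in Th1 cells and 0 rose, against 4.63% and 2.65% of all genes, with a median of -0.32 (-0.02 over all genes). Pole differed by -0.61 ± 0.13 (adjusted p = 0.00629) and Rrm2 by -0.60 ± 0.17 (adjusted p = 0.035). Rfc1, the large subunit of the Pcna loader, measured 9.28 and 9.30 unstimulated and 8.78 and 8.81 restimulated, a difference of -0.49 ± 0.14 (adjusted p = 0.0356). Prim2, the regulatory subunit of primase, measured 9.62 and 9.56 and then 9.18 and 9.08, a difference of -0.46 ± 0.13 (adjusted p = 0.0319). With the replicate as a block Prim2 was not called (adjusted p = 0.0557) and Cdc6 was (adjusted p = 0.0487). Erythroid markers fell as well, 3 of 7 called with a median of -0.75, as did 1 of 4 NK markers. With 2 arrays on each side the count moved between 0 and 13: it was 0 without unstimulated replicate 1, 2 without unstimulated replicate 2 or restimulated replicate 1, 0 with only the compared groups or the erythroid covariate, 8 with cyclic loess and 13 over genes above the median level.

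In Th17 cells of day 15, 19 genes fell and 0 rose, against 11.1% and 6.49% of all genes, with a median of -0.26 (-0.08 over all genes), but every restimulated array lay below every unstimulated one for 6 genes, against 11% of all genes. Mcm2 differed by -0.55 ± 0.09 (adjusted p = 0.000103) and Rrm2 by -0.55 ± 0.12 (adjusted p = 0.0027). Rfc5, of the Pcna loader, measured 11.33, 11.43, 11.41 and 11.36 unstimulated and 10.70, 10.81, 11.00 and 11.13 restimulated, a difference of -0.47 ± 0.09 (adjusted p = 0.00085), with no overlap. Rfc1 measured 9.57, 9.58, 9.23 and 9.65 and then 8.77, 9.13, 9.18 and 9.25, a difference of -0.43 ± 0.10 (adjusted p = 0.00446), where unstimulated replicate 3 overlapped the restimulated arrays. The 19 included 7 of 11 licensing genes, 6 of 10 fork genes and 3 of 4 nucleotide supply genes. Erythroid markers fell with them, all 7 called with a median of -1.21, and with their mean as a covariate 0 of the 39 genes were called lower and 3 others (Rfc3, Dbf4 and Orc1) higher. Of 11 myeloid markers 3 fell, and 1 of 4 NK markers rose. The count was also 10 without unstimulated replicate 1, 12 without unstimulated replicate 2, 23 without unstimulated replicate 3, 7 without restimulated replicate 1, 12 without restimulated replicate 2 and 9 with only the compared groups. Tk1, thymidine kinase, has another probe set, and with the mean of both it was not called. With the replicate as a block Tk1 was not called either (adjusted p = 0.0579), and Pole was (adjusted p = 0.0476).

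Some genes departed from the pattern, among them the licensing factors Orc1 and Cdt1 and the clamp Pcna. Pcna means, unstimulated and restimulated, were 12.83 and 12.81 in Th1 and 12.79 and 12.81 in Th17 cells of day 5. On day 15 they were 12.56 and 12.51 in Th1 and 12.64 and 12.67 in Th17 cells. In Th17 cells of day 15, 6 of the 39 genes had a positive difference. Orc1 differed after restimulation by -0.21 in Th1 and -0.03 in Th17 cells of day 5, and by 0.03 and 0.31 on day 15, none of them called. Cdt1, which brings the Mcm ring to the origin, differed by -0.01 and 0.12 on day 5 and by 0.16 and -0.02 on day 15, also not called. In all, 15 of the 39 genes were called in no restimulation comparison. The share of all genes called in none was not counted, so this number alone does not mark a departure. The difference between types in the response to restimulation was called by limma for 0 of 39 genes on day 5, against 0.0201% of all genes in either direction, and for 0 on day 15, against 0%. The difference between days in that response was called for 0 of 39 in Th1, against 0.0251%, and for 0 in Th17, against 1.17%. At an unadjusted p under 0.05 these tests held 1 gene of the 39 higher and 0 lower for the types on day 5 (2.46% of all genes in either direction), 2 and 0 on day 15 (6.1%), 0 and 1 for the days in Th1 (4.23%), and 1 and 2 in Th17 (15.8%).

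**Figure D5:**
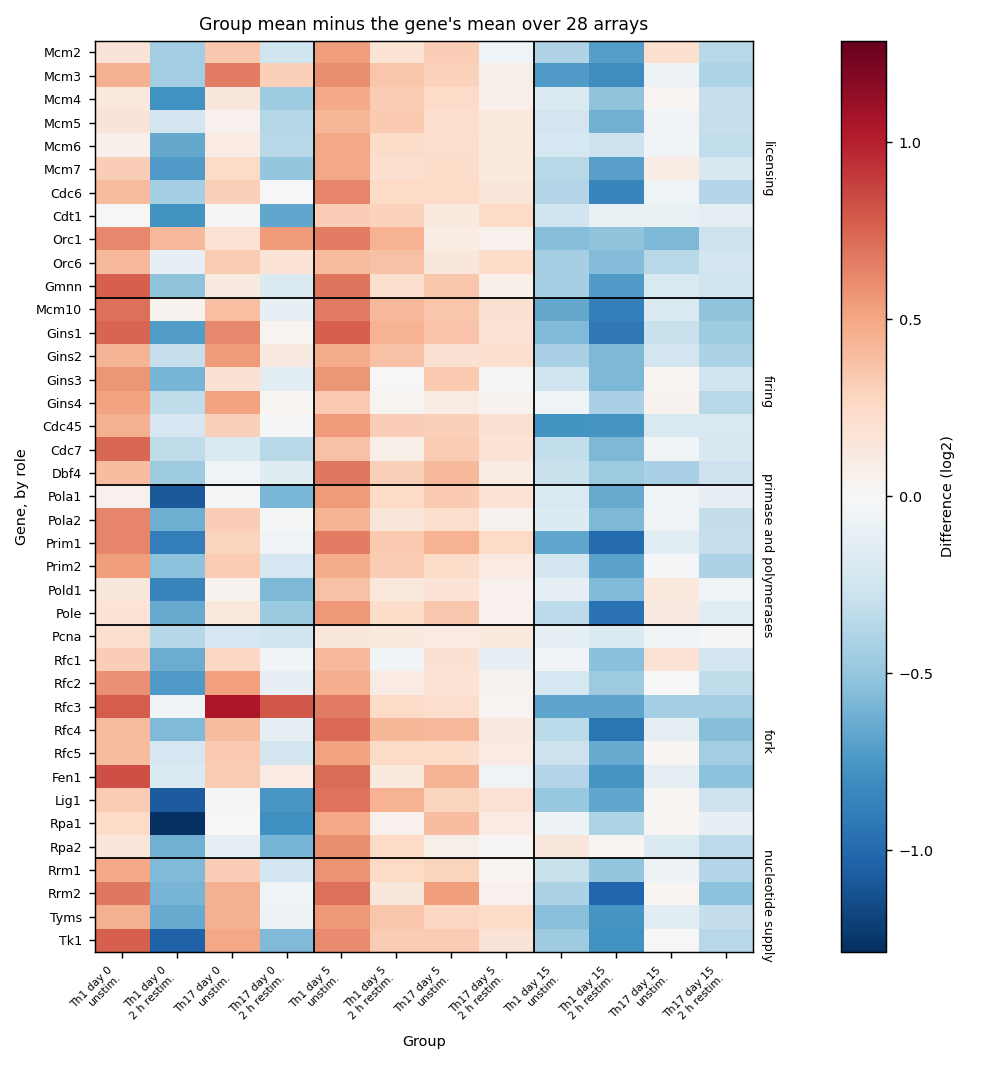
Group mean minus the gene's mean over 28 arrays (log2, red above and blue below) for the 39 replication genes in rows, ordered by role, and the 12 groups in columns. The unstimulated Th1 column of day 5 is red for all 39 genes, and the Th1 columns of day 15 are the bluest after transfer.

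On day 0, before transfer, 1 array per group was measured, so the values carry no replicate error and no test. Markers of other cells differed from those of later days: the mean of 5 dendritic cell and MHC class II markers lay between 8.77 and 9.70, against 7.10 to 7.94 after transfer, and the myeloid mean was 9.59 and 9.09 in unstimulated and restimulated Th17 cultures. In unstimulated cultures the median of the 39 genes was close to day 5, at -0.09 for day 0 minus the day 5 mean in Th1 and -0.00 in Th17. Single genes differed more, from -0.49 (Pola1) to 0.35 (Cdc7) in Th1 and from -0.52 (Cdc7) to 0.81 (Rfc3) in Th17. After 2 h of restimulation all 39 genes were lower in Th1, with a median of -0.95, and 18 were at least 2-fold lower, against 5.72% of all genes. In Th17 38 of 39 were lower, with a median of -0.49, and 1 was at least 2-fold lower, against 0.757% of all genes. The mean of the T cell markers was lower after restimulation too, with differences of -0.42 from 12.42 in Th1 and -0.24 from 12.47 in Th17, and the part of any marker in these differences was not tested. Tk1 had the largest difference in both, from 10.78 to 8.97 in Th1 and from 10.51 to 9.44 in Th17. Rpa1 went from 10.61 to 9.07 in Th1 and from 10.35 to 9.57 in Th17, Prim1 from 9.78 to 8.27 and from 9.44 to 9.12. Orc1 again stood out, at 8.73 and 8.53 in Th1 and 8.30 and 8.66 in Th17. The Th17 minus Th1 median was -0.11 in unstimulated cultures and 0.33 in restimulated ones, where 35 of 39 genes had a higher value in Th17.

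In both types, other lists of the cell cycle also held more genes that fell than rose from day 5 to day 15 in unstimulated cells. Over all genes, 8.72% fell and 7.33% rose there in Th1 cells, and 5.28% and 4.37% in Th17 cells. In restimulated cells of day 15, 3.45% of all genes were higher and 2.98% lower in Th17 than Th1. Of 28 other replication genes, 18 fell and 0 rose from day 5 to day 15 in unstimulated Th1 cells (median -0.54) and 11 fell and 0 rose in Th17 cells (median -0.21), and 7 were higher and 0 lower in restimulated Th17 than Th1 cells of day 15. Of 10 genes of chromatin assembly and S phase coupling, 9 fell in unstimulated Th1 cells over those days (median -0.83) and 3 in Th17 cells (median -0.28), with 0 rising in either. The 22 measured E2F and G1/S regulators were mixed, with 13 lower and 4 higher in Th1 (median -0.46) and 10 lower and 1 higher in Th17 (median -0.26). Of 9 measured other genes of nucleotide supply, 5 fell and 2 rose in Th1 (median -0.77) and 2 fell and 1 rose in Th17 (median -0.19). The 19 measured mitosis genes fell in Th1 for 19 of 19 (median -1.27) and in Th17 for 18 (median -0.59), and in restimulated cells of day 15 all 19 were higher in Th17, with a median of 0.68 against 0.32 for the 39 replication genes. No test was made of the difference between the lists.

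Within the 39, Pcna and Pold1 were called in the fewest comparisons, 1 of 12 each, and Rrm2 and Mcm2 in the most, 8 of 12 each. Pcna measured 12.88, 12.77 and 12.85 in unstimulated Th1 arrays of day 5 and 12.59 and 12.54 on day 15, against 12.73, 12.85 and 12.79 and then 12.69, 12.72, 12.40 and 12.73 in Th17. Its values stayed within a narrow range, and its other probe set gave nearly the same group means. Pold1 measured 9.22 and 10.08 in restimulated Th1 arrays of day 15, which differed more from each other than any other replicates of that gene.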

How the data were processed

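RNA of TRP1-specific CD4+ T cells, 150 ng per the labels' protocols, was hybridised to 28 mouse arrays of Affymetrix, each holding 1 part of a sample. The authors deposited log2 values made by RMA in Affymetrix Expression Console, per the submitters' processing notes, and the sources used here give no versions. Because RMA subtracts background and brings all arrays to a common distribution before probes are summarised, a change shared by all genes cannot be seen. The annotation paired 21789 of 35556 probe sets with a single symbol (1 each), 1621 with several and 12146 with none. Identifiers of 21698 of the 21789 were found in the gene table, where 0 symbols needed updating. Where a gene had several probe sets, as 999 did, that of highest mean level stood for it, giving 19938 genes. Arrays of the same group correlated at 0.987 to 0.998.

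In R 4.3.3, limma 3.58.1 (lmFit, eBayes) fitted the 24 arrays taken after transfer with a mean for each of 8 groups, leaving 16 residual degrees of freedom. For 12 pairwise comparisons and 5 interactions a gene was called where its p, adjusted by Benjamini-Hochberg over all genes, was under 0.05. The 4 day 0 arrays, 1 per group, were not in the model. The pipeline was tested on simulated data.

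The members and lists were chosen with earlier results of these data known. All 39 members could be named. Values in every array are given for the 12 called most often and for up to 4 called members with the largest change in each comparison and 5 in each interaction. Promoters are RefSeq windows of GRCm38.p6. Pold1 was described array by array after its values were seen. Per the labels' protocols each sample was split for restimulation, and unstimulated and restimulated arrays of the same number were taken as its parts. Over 9969 genes their deviations correlated at 0.158 to 0.215 in Th1 and 0.384 to 0.474 in Th17 on day 5, and at 0.13 and -0.164 to 0.213 on day 15. Restimulated Th17 and Th1 arrays of day 5 were also taken as paired (0.217 to 0.483), though the labels link them by replicate number alone. Restimulated Th1 arrays of day 15 and day 5, not taken as paired, correlated at 0.382 to 0.644. Same-numbered arrays of the other comparisons, not taken as paired, correlated at -0.218 to 0.654, so such values alone do not show a shared sample. Alternatives were the replicate block, a model of the compared groups alone, genes above the median level, cyclic loess, the mean of all probe sets, the erythroid marker mean as a covariate and leaving out each array.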

Additional observations from a re-analysis of the deposited data

Results flagged for a closer look

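Of 78 checks for a sample far from the other 3 of its group (Dixon's test at 95%, which chance alone passes about 1 time in 20), 6 stood out. Of these, 4 are in unstimulated Th17 replicate 3 of day 15, where Mcm4 was 10.86 (others 11.26, 11.26 and 11.28), Pcna 12.40 (others 12.69, 12.72 and 12.73), Rfc3 8.0 (others 8.58, 8.63 and 8.65) and Gins4 10.29 (others 10.45, 10.46 and 10.46). In restimulated Th17 cells of day 15, Cdc7 was 8.0 in replicate 1 (others 8.34, 8.38 and 8.40) and Rpa2 was 9.56 in replicate 4 (others 9.36 each).

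The change from day 5 to day 15 in unstimulated cells differed between the types by the limma interaction test for 8 genes, with Th17 minus Th1 values of 0.80 for Mcm2, 0.97 for Mcm3, 0.72 for Mcm7, 0.78 for Mcm10, 0.74 for Prim1, 0.65 for Pole, 0.81 for Cdc45 and 0.92 for Lig1. Their adjusted p-values ran from 0.00073 (Lig1) to 0.0444 (Prim1).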

How the results depend on the processing

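Of 184 calls of members in the pairwise comparisons, 74 held under every alternative run for them, made up of 23 of 37 and 27 of 38 falls from day 5 to day 15 in unstimulated and restimulated Th1 cells, 6 of 18 and 11 of 30 in Th17 cells, 4 of 11 and 0 of 5 for restimulation in Th1 of day 5 and day 15, 0 of 4 and 0 of 19 in Th17, and 1 of 2, 0 of 8 and 2 of 12 for the types (unstimulated on day 5 and day 15, restimulated on day 15). For type by day 1 of 8 held. The shares of all genes in this report belong to the main model. Counts under the alternatives stand without such a share, so they do not show whether the members or all genes gained or lost calls. The erythroid covariate turned the count for restimulated against unstimulated Th17 cells of day 15, where 3 genes were higher and 0 lower in place of 19 lower. Of those 19, 9 kept their sign without being called (from -0.36 for Rfc5 to -0.04 for Tk1) and 10 changed it, with values of 0.29 for Mcm3, 0.23 for Mcm4, 0.22 for Mcm6, 0.00 for Mcm7, 0.20 for Mcm10, 0.04 for Rfc1, 0.62 for Rfc4, 0.14 for Prim2, 0.29 for Rrm1 and 0.22 for Rrm2, and the cause was not tested. With that covariate, the counts were 16, 16 and 22 for Th17 against Th1 (unstimulated on day 5 and day 15, restimulated on day 15), 19, 0 and 0 for restimulation in Th1 of day 5 and day 15 and Th17 of day 5, 24 and 17 for the days in unstimulated Th1 and restimulated Th17, 23 for type by day and 3 for day by restimulation in Th17.

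In a model of the compared groups alone, which has fewer arrays to estimate the spread, the counts were 7, 3 and 2 for those comparisons of the types, 25, 0, 2 and 9 for restimulation in Th1 of day 5 and day 15 and Th17 of day 5 and day 15, and 10 for the days in unstimulated Th17. Over genes above the median level they were 18 and 13 for restimulation in Th1 of day 5 and day 15. Cyclic loess gave 4 for the types in unstimulated cells of day 5, 8 and 7 for restimulation in Th1 of day 15 and Th17 of day 5, and 18 for type by day. With the replicate as a block, where numbers were not taken as paired, the count for the types in unstimulated cells of day 5 was 4. For the types on day 15, Pole was lost in unstimulated cells and Mcm2, Mcm5, Cdc6 and Lig1 in restimulated cells. Prim1 and Pole were lost for type by day. For the days, Pold1 was gained in unstimulated Th1 cells and Mcm5, Gins3, Cdc6, Tyms and Lig1 in unstimulated Th17 cells. Where the numbers were taken as paired, Rfc2, Rpa1, Prim2 and Tk1 were lost for restimulation. Rfc3, Cdc6 (on both days in Th1) and Pole were gained there, and no other call changed in those comparisons.

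Leaving out 1 array at a time gave 1 to 2 and 0 to 0 for the types on day 5 (unstimulated and restimulated), 0 to 9 and 6 to 22 on day 15, 4 to 12 and 0 to 6 for restimulation in Th1 of day 5 and day 15, 1 to 3 and 7 to 23 in Th17, 34 to 37 and 34 to 38 for the days in Th1, 10 to 21 and 22 to 30 in Th17, and 1 to 17 for type by day. Where 1 array was left in a group it was assumed to vary like the others. Groups of 2 to 4 arrays limit which differences could be called. The erythroid covariate was added to a mean for each group, so its slope came from differences among arrays within groups. Because the erythroid mean differs strongly between the days, that covariate also makes the differences between days less precise.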
